A study of Mus musculus with 6 samples.

Results

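The genes described here are 39 listed genes of mitosis whose proteins build the spindle and the kinetochores, condense the chromosomes, start anaphase or divide the cell. They were listed by name, but with earlier results of these data known, so the list is not independent of these data. Motor proteins of the kinesin family were left out by the list's rule, although Cenpe, which is listed, encodes a motor of that family. Of the 39 genes, 36 had probe sets assigned to a single gene symbol in the array's annotation. All 36 were among the 14742 genes tested, those whose mean signal was not in the dimmest 10%. Cenpf, Cenpi and Ncapg had no probe set with 1 symbol in the annotation used here and were not analysed here.

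The samples are olfactory epithelium of 3 male C57BL/6 mice at 5 days after removal of 1 olfactory bulb (bulbectomy, OBX). The labels give an age of 8 weeks, and the study's methods give a younger age at surgery. From each mouse the epithelium on the operated side (OBX side) and on the opposite side (control side) was hybridised to an Affymetrix Mouse Exon 1.0 ST array, 6 arrays in all, so that the control tissue also comes from an operated animal. All values are log2 signals after robust multichip analysis (RMA), a difference of 1 is a doubling, and each difference is OBX side minus control side within a mouse.

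The mitotic spindle is an array of microtubules that pulls the copied chromosomes apart, and the kinetochore is the protein assembly on each centromere that grips those microtubules. A checkpoint holds the cell before anaphase until every kinetochore is attached, while condensin compacts the chromosomes, and mRNAs for most of these proteins are made mainly late in the cell cycle. In the olfactory epithelium the dividing cells are mostly basal progenitors, which replace olfactory sensory neurons (OSNs) that die when bulbectomy severs their axons.

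The labelled tissue was checked against Omp, the marker of mature OSNs, which had 13.61, 12.66 and 13.35 on the OBX side, against 14.28, 14.19 and 14.19 on the control side. Omp was thus high on all 6 arrays and lower on the OBX side of every mouse (-1.01 ± 0.19, mean ± SE, adjusted p = 0.024). Median signals of the 6 arrays lay between 8.37 and 8.55. Arrays of the same side correlated at r = 0.970 to 0.983 over the probe sets assigned to a single gene symbol. The number of arrays, 3 per side, limits the precision of every value below.

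The mitotic genes were higher on the OBX side almost throughout. By limma with the mouse as a block and Benjamini-Hochberg adjustment over all genes tested, 26 of the 36 rose at an adjusted p under 0.05, against a background of 9.89% of all genes called higher. None of the 36 fell or had a negative difference, where limma called 12.7% of all genes lower. The median difference of the 36 was 0.63, a fold of 1.55, with medians of 0.51, 0.65 and 0.84 in mice 1, 2 and 3 (SD 0.16, n = 3). Over all genes tested the medians were -0.01 overall and 0.03, -0.08 and -0.00 in the 3 mice. The single values ran from 0.07 for Bub3 to 0.97 for Mki67, and 28 of the 36 lay between 0.5 and 1, so that most of the genes moved by a similar, less than 2-fold amount. In 34 of the 36 genes all 3 mice had the higher signal on the OBX side, against 4308 of all 14742 genes tested. The exceptions were Bub3 in mouse 2 and Incenp in mouse 1. In 32 genes the 3 OBX arrays all lay above the 3 control arrays, which held for 20.7% of all genes.

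Mouse 3 had the largest difference for 26 of the 36 genes and the smallest for 0. Without mouse 3 all 36 genes were still higher on the OBX side, with a median of 0.54, but only Ttk remained called, and the genes called higher over the whole array numbered 63, against 1458 with all mice. Scaled on 62 cytosolic ribosomal protein genes, which moves the median of all genes to -0.25, the 36 had a median of 0.40. Before scaling, the 62 genes themselves had a median difference of 0.24, with 0.39, 0.09 and 0.25 in mice 1, 2 and 3. Of the 62, 3 were called higher and 0 lower. Of the 36, 10 remained called: Bub1, Cenpe, Cenpk, Cenpn, Mki67, Ncaph, Nusap1, Plk1, Top2a and Ttk. Over all 14742 genes this scaling called 235 higher and 4181 lower. In bulk tissue, more dividing cells, a larger share of surviving cells after OSN loss and more RNA per cell cannot be told apart. The paper raises such a larger share as a possible source of increases, and argues that it may not be the only one. Which of these applied to the 36 genes was not tested.

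**Figure D1:**
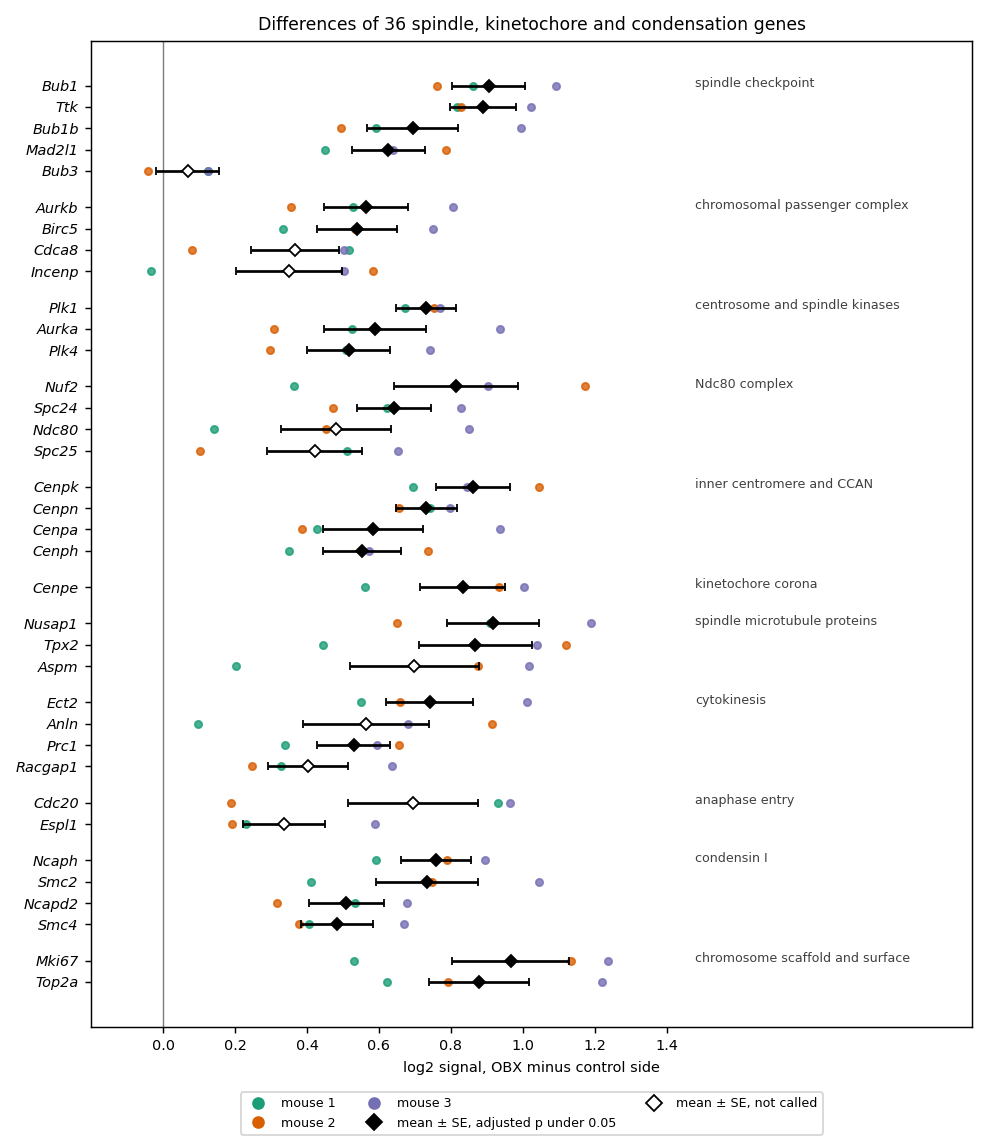
The log2 difference (OBX minus control side) of each of the 36 genes, grouped by role. Coloured points are mice 1 to 3, diamonds are the mean ± SE of the limma fit, filled where the adjusted p is under 0.05. All diamonds lie above 0 and 26 are filled, and the point of mouse 3 is the rightmost for 26 genes.

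Promoters of 6 of these genes are printed to show the short elements that late cell cycle genes are known for, in a set of genes that moved together. The cell cycle genes homology region (CHR, letters TTTGAA, or TTCAAA on the other strand) and the CCAAT box (CCAAT, or ATTGG on the other strand) were searched on both strands in windows of 250 bases before to 50 after each start site. The sequences are from RefSeq, build GRCm38.p6, and each line is the 120 bases before a listed start site, 5′ to 3′ in the direction of the gene, with matches in capitals. Mki67 (chr7:135716380-135716499 on the minus strand) and Top2a (chr11:99024190-99024309 on the minus strand) are shown for the chromosome genes with large differences, Cenpn (chr8:116921620-116921739 on the plus strand) and Prc1 (chr7:80294356-80294475 on the plus strand) for a CHR close to the start, and Cdc20 (chr4:118437344-118437463 on the minus strand) and Bub3 (chr7:131560250-131560369 on the plus strand) for genes that carried both motifs and were not called.
Mki67: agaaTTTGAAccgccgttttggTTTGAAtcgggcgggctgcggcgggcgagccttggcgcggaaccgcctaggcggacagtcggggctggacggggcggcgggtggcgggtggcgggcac
Top2a: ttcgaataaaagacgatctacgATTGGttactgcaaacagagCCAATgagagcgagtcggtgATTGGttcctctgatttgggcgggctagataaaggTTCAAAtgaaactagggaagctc
Cenpn: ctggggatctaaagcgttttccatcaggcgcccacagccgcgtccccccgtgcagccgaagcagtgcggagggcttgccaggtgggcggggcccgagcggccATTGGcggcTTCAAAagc
Prc1: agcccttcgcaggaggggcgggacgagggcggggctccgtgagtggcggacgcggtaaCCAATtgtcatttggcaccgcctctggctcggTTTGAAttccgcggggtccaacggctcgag
Cdc20: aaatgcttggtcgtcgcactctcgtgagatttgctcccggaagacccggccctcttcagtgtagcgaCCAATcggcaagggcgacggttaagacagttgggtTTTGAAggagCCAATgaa
Bub3: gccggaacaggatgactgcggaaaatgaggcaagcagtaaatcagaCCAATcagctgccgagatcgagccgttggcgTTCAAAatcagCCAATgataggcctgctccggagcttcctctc

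The 34 listed genes found in the RefSeq promoter table had 39 promoter windows, and Aurkb, Spc24, Incenp, Tpx2 and Smc4 were not matched. A CHR lay in 26 of the 39 windows (66.7%), against 17.9% of all 32851 promoters. Within 50 bases of the start the shares were 59.0% and 4.94%. A CCAAT box lay in 31 of the 39 windows (79.5%), against 37.4% of all promoters, and both motifs lay in 24 (61.5%), against 6.95%. The motifs can share no more than an end base. Among the 31 tested genes with a window, 21 had a CHR, of which 12 were called higher, with a median difference of 0.59. The other 10 had none, all 10 were called, and their median was 0.79. A CCAAT box was in 23 of the 31, of which 16 were called (median 0.69), and 6 of the 8 without it were called (median 0.59). A match describes the letters in the window and is not a measured binding site.

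**Figure D2:**
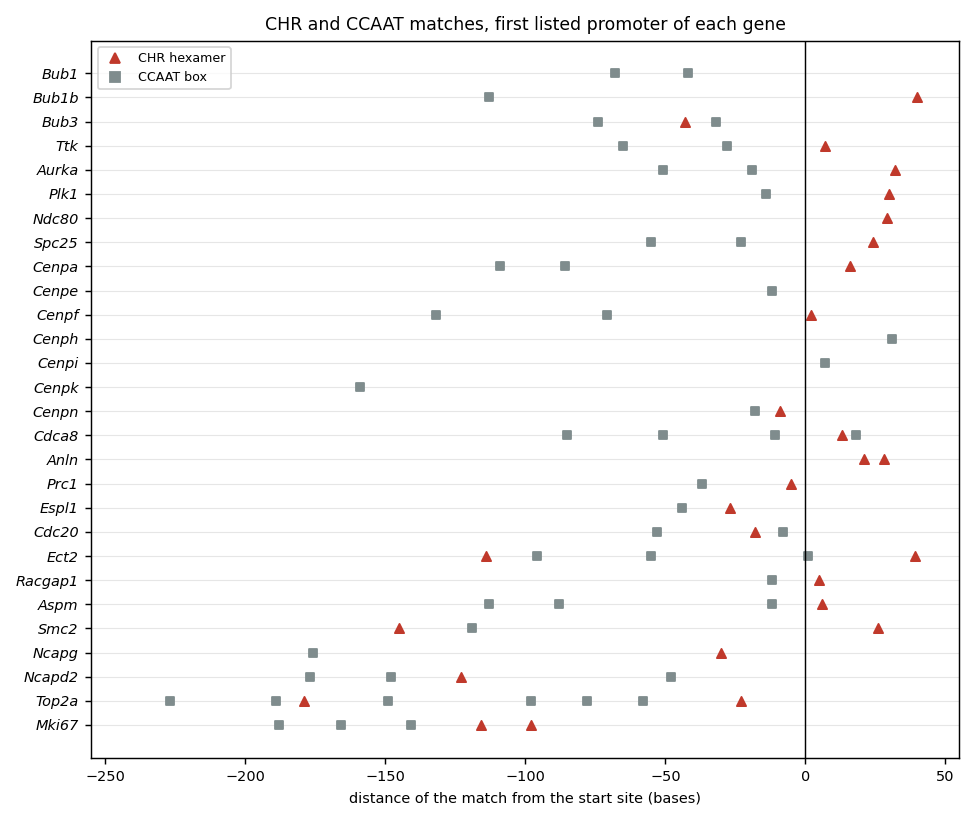
Distance in bases of each CHR (triangles) and CCAAT box (squares) from the start site (0), 1 line per gene that had a match, in the first promoter listed for the gene. Most triangles lie within 50 bases of the start, and the squares lie mostly before it. The printed Prc1 stretch belongs to its other listed start.

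Spindle checkpoint genes rose in 4 of 5 cases. Bub1, the kinase that recruits checkpoint proteins to the kinetochore, had 7.68, 7.30 and 7.58 on the OBX side, against 6.81, 6.54 and 6.49 on the control side. No arrays overlapped between the sides, and the difference was 0.90 ± 0.10 (SE, adjusted p = 0.00761). Ttk, which encodes the kinase Mps1 at the head of the checkpoint, had 7.24, 6.86 and 7.05 on the OBX side, against 6.42, 6.03 and 6.02 on the control side. With mice at 0.82, 0.83 and 1.02 (mice 1, 2 and 3), Ttk had the lowest adjusted p of the 36 (0.89 ± 0.09, 0.006). Bub1b, which encodes the inhibitor BubR1 of the checkpoint complex, differed by 0.69 ± 0.13 (adjusted p = 0.0232). Mad2l1, the Mad2 protein that binds Cdc20, differed by 0.63 ± 0.10 (adjusted p = 0.0175). The exception was Bub3, the partner of Bub1 and BubR1, which had 11.63, 11.46 and 11.58 on the OBX side, against 11.51, 11.50 and 11.46 on the control side. Its arrays overlapped, and its difference of 0.07 ± 0.09 (adjusted p = 0.605) had a 95% interval of -0.16 to 0.29, below the values of Bub1 and Ttk. Bub3 also carried both promoter motifs, as printed above, and its difference turned to -0.17 when scaled on ribosomal protein genes and to -0.034 with the median of its probe sets.

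**Figure D3:**
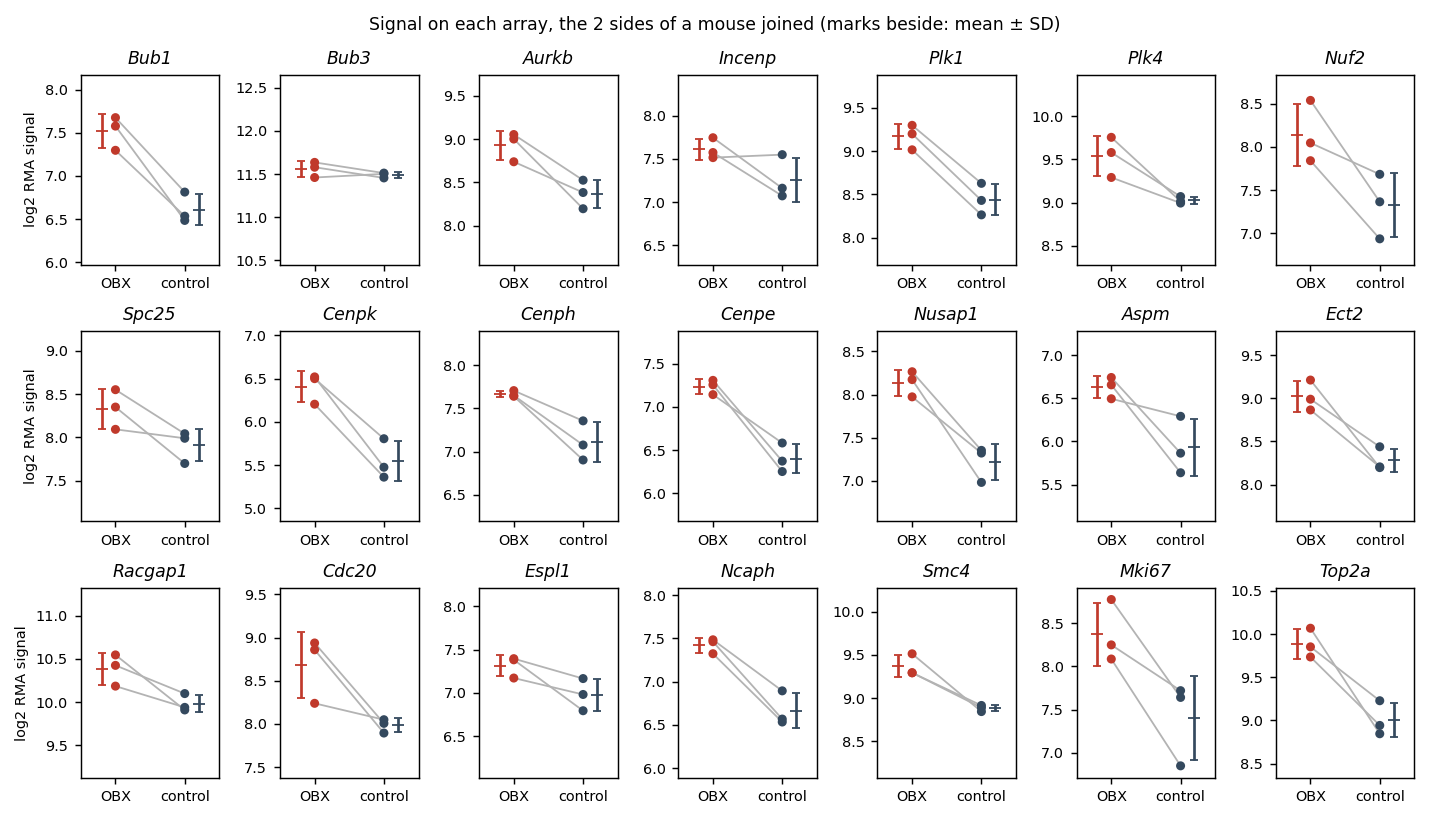
log2 RMA signal on each array for the genes with the largest and the smallest difference in each role, OBX side left of control side, with grey lines joining the sides of a mouse and marks giving mean ± SD (n = 3). Every panel spans the same number of log2 units. Bub3 and Incenp are the panels here in which the sides overlap.

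The chromosomal passenger complex, which corrects faulty attachments and later moves to the spindle midzone, had 2 of 4 genes called. Aurkb, its kinase Aurora B, had 9.05, 8.74 and 9.00 on the OBX side, against 8.53, 8.38 and 8.20 on the control side. The sides did not overlap, and the difference was 0.56 ± 0.12 (SE, adjusted p = 0.0311). Birc5, which encodes the subunit survivin, differed by 0.54 ± 0.11 (adjusted p = 0.0311). Incenp, the scaffold of the complex, had 7.51, 7.74 and 7.57 on the OBX side, against 7.55, 7.16 and 7.07 on the control side. The control array of mouse 1 lay among the OBX arrays, and the difference of 0.35 ± 0.15 was not called (adjusted p = 0.153). Cdca8, the subunit borealin, overlapped as well and was not called (0.37 ± 0.12, adjusted p = 0.0934), with mice at 0.52, 0.08 and 0.50.

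Of the kinases of centrosome and spindle, all 3 rose. Plk1, which drives centrosome maturation and many later steps of mitosis, had 9.30, 9.02 and 9.20 on the OBX side, against 8.63, 8.26 and 8.43 on the control side. The mice were close, at 0.67, 0.75 and 0.77, and the difference was 0.73 ± 0.08 (SE, adjusted p = 0.00768), the smallest error of the 36 genes. Plk4, the kinase that starts centriole duplication, had 9.58, 9.29 and 9.76 on the OBX side, against 9.07, 8.99 and 9.01 on the control side. Its control arrays lay closer together than its OBX arrays, with no overlap (0.52 ± 0.11, adjusted p = 0.037). Aurka, the spindle pole kinase Aurora A, differed by 0.59 ± 0.14, with the highest adjusted p among those called (0.0442).

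The Ndc80 complex is the part of the kinetochore that holds the microtubule, and 2 of its 4 subunits were called. Nuf2 had 8.05, 8.54 and 7.84 on the OBX side, against 7.68, 7.37 and 6.94 on the control side. Mouse 2 had the largest difference of the 3 (0.36, 1.17 and 0.90), and the sides did not overlap (0.81 ± 0.17, adjusted p = 0.0328). Spc24 differed by 0.64 ± 0.10 (adjusted p = 0.0174). Its partner Spc25 had 8.55, 8.09 and 8.35 on the OBX side, against 8.04, 7.99 and 7.70 on the control side. All OBX arrays lay above the control arrays, that of mouse 2 by a narrow margin, and Spc25 was not called (0.42 ± 0.13, adjusted p = 0.0817). Ndc80 itself, which pairs with Nuf2, was not called either (0.48 ± 0.15, adjusted p = 0.0851), with mice at 0.14, 0.45 and 0.85. The 95% intervals of the called and uncalled subunits overlapped, from 0.37 to 1.26 for Nuf2 to 0.09 to 0.88 for Ndc80.

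Centromere genes, which encode the chromatin and the inner plate on which the kinetochore forms, rose in all 4 cases tested. Cenpk had 6.50, 6.52 and 6.20 on the OBX side, against 5.80, 5.47 and 5.36 on the control side. The sides lay far apart relative to their spread (0.86 ± 0.10, SE, adjusted p = 0.00868). Cenpn, the subunit that reads centromeric nucleosomes, had 8.27, 7.96 and 8.03 on the OBX side, against 7.52, 7.30 and 7.24 on the control side. With mice at 0.74, 0.66 and 0.80, it was nearly as even as Plk1 (0.73 ± 0.08, adjusted p = 0.00794), and its promoter above has a CHR just before the start. Cenph had 7.71, 7.64 and 7.65 on the OBX side, against 7.36, 6.90 and 7.08 on the control side. Its OBX arrays lay close together and all above the control arrays (0.55 ± 0.11, adjusted p = 0.0272). Cenpa, the histone variant that marks the centromere, differed by 0.58 ± 0.14 (adjusted p = 0.0426). In the outer corona, Cenpe, the kinesin motor that carries chromosomes to the spindle equator, had 7.14, 7.31 and 7.26 on the OBX side, against 6.58, 6.37 and 6.25 on the control side. The groups were well separated (0.83 ± 0.12, adjusted p = 0.0128).

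Among microtubule proteins of the spindle, Nusap1, which bundles and anchors microtubules at chromosomes, had 8.26, 7.97 and 8.17 on the OBX side, against 7.35, 7.32 and 6.98 on the control side. No arrays overlapped, and its difference of 0.92 ± 0.13 (adjusted p = 0.0121) was second among the 36 to that of Mki67. Tpx2, the activator of Aurora A that nucleates microtubules near chromosomes, differed by 0.87 ± 0.16 (adjusted p = 0.023), with mouse 1 the smallest at 0.44. Aspm, which organises the spindle poles and is known for its part in the divisions of neural progenitors, had 6.49, 6.74 and 6.65 on the OBX side, against 6.29, 5.86 and 5.64 on the control side. The control array of mouse 1 lay nearest the OBX arrays, and with mice at 0.20, 0.88 and 1.02 the gene was just outside the threshold (0.70 ± 0.18, adjusted p = 0.051).

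Of the genes for cytokinesis, 2 of 4 were called. Ect2, the exchange factor that switches on the contractile ring, had 8.99, 8.86 and 9.21 on the OBX side, against 8.44, 8.21 and 8.20 on the control side. The sides did not overlap (0.74 ± 0.12, adjusted p = 0.0174). Prc1, which crosslinks microtubules of the midzone, had 9.09, 8.98 and 8.95 on the OBX side, against 8.75, 8.33 and 8.36 on the control side. Its OBX arrays were all above the control arrays (0.53 ± 0.10, adjusted p = 0.0262). Racgap1, a subunit of the centralspindlin complex and a partner of Ect2, had 10.42, 10.18 and 10.55 on the OBX side, against 10.10, 9.94 and 9.91 on the control side. The sides were separate, but the difference of 0.40 ± 0.11 was not called (adjusted p = 0.0599). Anln, the ring scaffold anillin, overlapped between the sides and was not called (0.56 ± 0.17, adjusted p = 0.0796), with mouse 1 at 0.10 against 0.91 in mouse 2.

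Neither gene of anaphase entry was called. Cdc20, the activator of the anaphase-promoting complex and the target of the checkpoint, had 8.94, 8.24 and 8.86 on the OBX side, against 8.01, 8.05 and 7.89 on the control side. Mouse 2 stood apart, with mice at 0.93, 0.19 and 0.96, and the difference was 0.69 ± 0.18 (adjusted p = 0.0523), a mean as large as that of Bub1b with a wider error. Espl1, the protease separase that cuts cohesin, had 7.40, 7.17 and 7.38 on the OBX side, against 7.17, 6.98 and 6.79 on the control side. Its arrays did not overlap, with the lowest OBX array barely above the highest control array (0.34 ± 0.11, adjusted p = 0.0978).

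Condensin I, the complex that gains access to chromosomes after the nuclear envelope breaks down, rose in all 4 subunits tested. Ncaph, its kleisin subunit, had 7.48, 7.32 and 7.46 on the OBX side, against 6.89, 6.53 and 6.57 on the control side. The OBX arrays lay close together and above every control array (0.76 ± 0.10, adjusted p = 0.0104). Smc4, an ATPase that condensin I shares with condensin II, had 9.29, 9.29 and 9.51 on the OBX side, against 8.89, 8.91 and 8.84 on the control side. Mouse 3 was the highest on the OBX side, and the control arrays lay close together (0.48 ± 0.10, adjusted p = 0.0312). Smc2, the other shared ATPase, differed by 0.73 ± 0.14 (adjusted p = 0.0268), and Ncapd2 by 0.51 ± 0.10 (adjusted p = 0.0311).

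Condensin II, which works in the nucleus before the envelope breaks down, did not move with condensin I. Of its 3 own subunits none was called higher and Ncapg2 was called lower. Ncapg2 had 11.62, 11.18 and 11.70 on the OBX side, against 12.10, 12.04 and 12.20 on the control side. All 3 OBX arrays lay below the control arrays, with mice at -0.48, -0.85 and -0.51 (-0.61 ± 0.11, adjusted p = 0.023), and without mouse 3 the difference was -0.67 (adjusted p = 0.105). Ncapd3 and Ncaph2 differed by -0.17 and 0.03 and were not called. The contrast between the complexes was not tested itself. In every mouse each of the 4 condensin I genes had a larger difference than the 3 genes of condensin II. Of those 4, Smc2 and Smc4 belong to both complexes, and Ncaph and Ncapd2 to condensin I alone.

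Both genes of the chromosome surface and scaffold rose, and Mki67 had the largest difference of the 36. Mki67, which encodes the proliferation marker Ki-67 that coats mitotic chromosomes, had 8.25, 8.77 and 8.09 on the OBX side, against 7.72, 7.64 and 6.85 on the control side. The control array of mouse 3 was the lowest of all, and the sides did not overlap (0.97 ± 0.16, adjusted p = 0.0188), with mice at 0.53, 1.13 and 1.24. Mki67 had 5 probe sets, the fewest of the 36 genes. Top2a, the topoisomerase that untangles sister DNA, had 9.85, 9.73 and 10.07 on the OBX side, against 9.23, 8.94 and 8.85 on the control side. Of its 37 probe sets, 36 were higher on the OBX side in all 3 mice, and the gene value was higher in every mouse (0.88 ± 0.14, adjusted p = 0.0164).

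The arrays measure exons singly, and the rise was present along the genes rather than in a few exons. Of the 711 probe sets of the 36 genes, 677 (95.2%) had a positive mean difference and 551 (77.5%) were higher in all 3 mice. Among all 209279 probe sets with 1 symbol the shares were 51.4% and 25.1%. The brighter probe sets of the 36 genes had a median difference of 0.64 and the dimmer ones 0.70. In Racgap1 and Top2a every probe set was positive, as in several other genes, among them Bub1, Bub1b and Ncapd2. Bub3 had values on both sides of 0, with 5 of its 9 probe sets positive. Other genes, such as Aspm, also had values on both sides of 0.

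**Figure D4:**
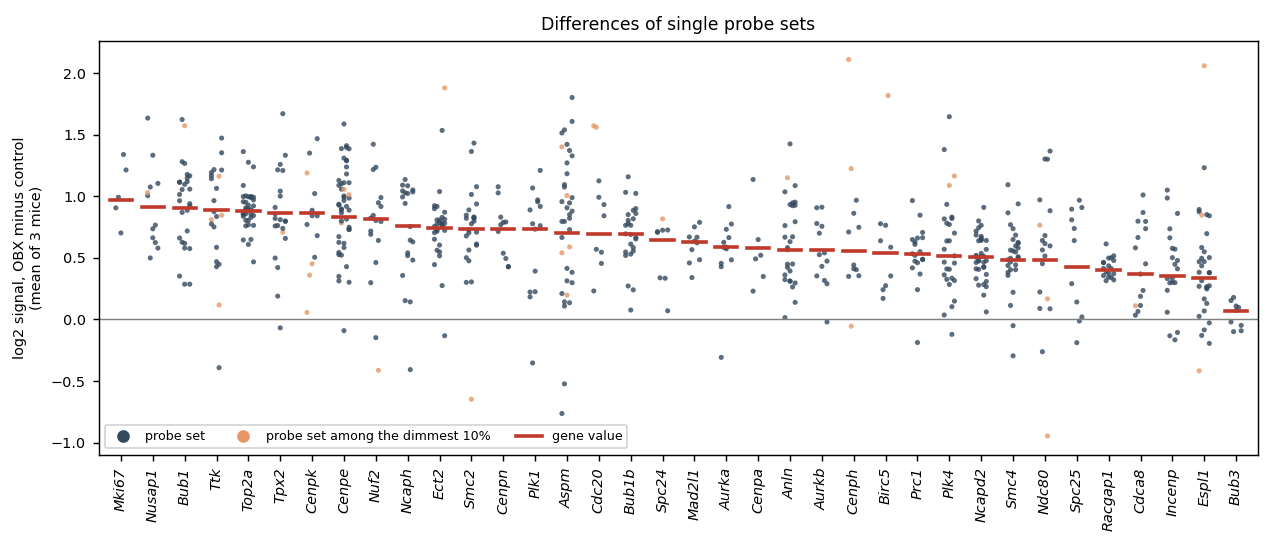
Each point is the log2 difference (OBX minus control, mean of 3 mice) of a probe set, with genes ordered by their difference and red bars giving the gene value. Orange points are among the dimmest 10% of probe sets. Of the 711 points, 677 lie above 0, and the widest scatter is in dim probe sets and in Aspm.

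A test of exon usage, in which each probe set is set against the rest of its gene (limma's diffSplice, Simes test per gene, Benjamini-Hochberg over 13357 genes), called 5 of the 36 genes, against a background of 7.99%. They were Plk4 (adjusted p = 0.00117), Ttk (0.00412), Plk1 (0.00629), Ncaph (0.00629) and Aurka (0.0371). In Plk4 the probe set with the smallest p had 5.95, 6.32 and 6.07 on the OBX side, against 3.98, 5.13 and 4.30 on the control side, a difference of 1.65, above that of the gene. In the other 4 genes the leading probe set fell short of its gene, with -0.39 in Ttk, -0.41 in Ncaph, -0.35 in Plk1 and -0.31 in Aurka. These calls assume that all probe sets of a gene vary alike. With each probe set's own spread, chosen after seeing the data, 0 of the 36 and 0 of 13357 genes were called by limma. The lowest adjusted p among the 36 was 0.275. At an unadjusted p under 0.05 there were 11 of the 36, against 1803 of all 13357 genes. With the pooled spread, leaving out mouse 1, 2 or 3 gave 7, 1 and 2 calls.

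Other genes of the same processes were read from lists of their own. Of the mitotic kinesins, the motors that the list leaves out, 9 of 12 were called higher, with a median difference of 0.69. Kif20a, needed at the midzone, had 8.61, 8.27 and 8.50 on the OBX side, against 7.82, 7.47 and 7.54 on the control side (0.85, adjusted p = 0.00621). Kif20b, a motor of late cytokinesis, differed by 1.04 (adjusted p = 0.00653), and in both genes the sides were far apart. Genes of mitotic entry had 12 of 22 called higher (median 0.54), led by Cdk1, the kinase that starts mitosis (0.98, adjusted p = 0.00687), and Cdca3, a trigger of entry (0.73, 0.0121). Without mouse 3 only 1 kinesin and 1 entry gene were called higher, and with scaling on ribosomal protein genes 3 kinesins and 5 entry genes, with 2 entry genes lower.

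Further kinetochore and centromere genes had 9 of 27 called higher, with a median of 0.28. Knl1, the platform on which Bub1 sits, differed by 0.79 (adjusted p = 0.00925), and Zwilch, of the corona complex that brings dynein, by 0.85 (0.00953). Other cytokinesis genes had 5 of 17 called (median 0.27), led by Kif20a and Kif4, which like Kif23 are kinesins counted above. Other spindle assembly genes had 10 of 29 called, led by Ckap2 (0.79, 0.0127) and Tacc3 (0.64, 0.0131). Their median of 0.18 turned to -0.05 when scaled on ribosomal protein genes. Tacc3 is also counted among the mitotic entry genes above, and Kifc1, not called, also among the mitotic kinesins. In the fit of all 3 mice no gene of the kinetochore, cytokinesis and spindle lists was called lower by limma. At an unadjusted p under 0.05, 1 kinetochore and 1 spindle gene were lower. With the ribosomal scaling 4 kinetochore, 2 cytokinesis and 2 spindle genes were called higher, and 2 kinetochore and 4 spindle genes lower. Over all 14742 genes that scaling called 235 higher and 4181 lower. The fit with trend and robust called 1 kinetochore gene lower. Without mouse 3 none of the 3 lists had a call by limma. The kinetochore genes called higher were 5 without mouse 1 and 7 without mouse 2, and the spindle genes 6 and 7.

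Cohesin and separation control genes, which hold sister chromatids together, had 2 of 14 called higher, Esco2 (0.61, adjusted p = 0.0115) and Cdca5 (0.46, 0.0364), both regulators of cohesion in the dividing cell. Their median of 0.08 turned to -0.15 under the ribosomal scaling, which left 0 of them called, as did leaving out mouse 3. The anaphase-promoting complex, which Cdc20 activates, had 3 of 17 called higher and a median of -0.02. Ube2c, its ubiquitin-conjugating enzyme (0.54, 0.0183), and Fbxo5, its inhibitor Emi1 (0.44, 0.0303), led. Under the ribosomal scaling this list had 0 called higher and 3 lower, with a median of -0.25, and without mouse 1, 2 or 3 it had 1, 1 and 0 called higher.

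Centriole duplication genes, the pathway that Plk4 starts, had 3 of 12 called higher and a median of 0.15 (-0.09 under the ribosomal scaling, with 1 called higher and 2 lower). Stil, which Plk4 binds and phosphorylates to begin a new centriole, had 8.86, 8.66 and 9.10 on the OBX side, against 7.87, 7.78 and 7.83 on the control side. The sides were far apart, and its difference of 1.05 ± 0.11 (adjusted p = 0.00622) exceeded that of every one of the 36 genes and was still called without mouse 3 (0.94, adjusted p = 0.0335). Sass6, which forms the centriole's cartwheel, differed by 0.50 (adjusted p = 0.0229).

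**Figure D5:**
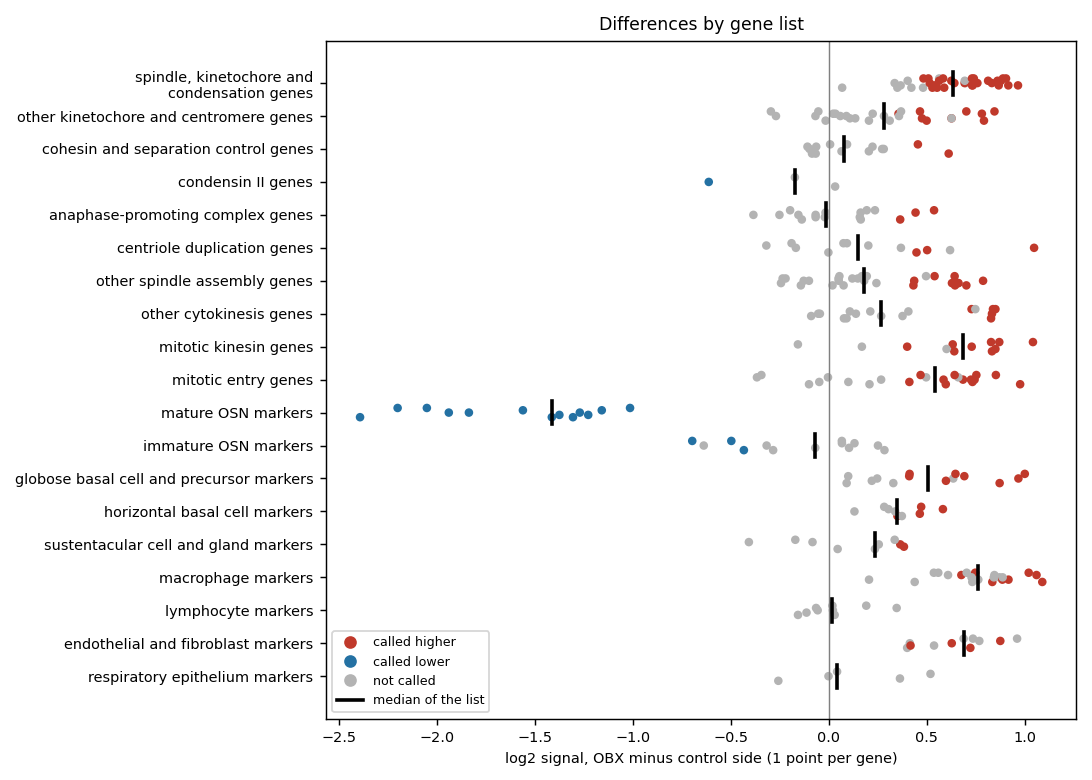
log2 difference (OBX minus control side) of each gene in the 36-gene set (top), in lists of related mitotic genes and in lists of cell type markers. Red points were called higher, blue points lower and grey points neither, and black bars are list medians. The 36 genes and the mitotic kinesins have medians of 0.63 and 0.69, while mature OSN markers are all called lower.

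Markers of several cell types moved along with the mitotic genes. Of 14 markers of globose basal cells and precursors, 8 were called higher (median 0.51), and their mean level over the list was 9.39 to 9.68 on the OBX side and 9.00 to 9.16 on the control side. Of 9 horizontal basal cell markers 4 were called higher (median 0.35), at 8.98 to 9.13 on the OBX side and 8.65 to 8.69 on the control side. Mature OSN markers were lower in 13 of 13 (median -1.41), at 10.25 to 11.30 on the OBX side and 12.26 to 12.48 on the control side. Without mouse 3 the calls were 3 globose and 0 horizontal basal cell markers higher and 12 mature OSN markers lower, and without mouse 1 no horizontal basal cell marker was called by limma. With the ribosomal scaling they were 5, 0 and 13.

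Macrophage markers were called higher in 8 of 21 (median 0.76), at 8.61 to 9.57 on the OBX side and 8.01 to 8.41 on the control side. At an unadjusted p under 0.05 limma had 20 of them higher. The adjusted count was 3 without the block and 3 with the ribosomal scaling, 13 with trend and robust, and 12, 11 and 4 without mouse 1, 2 or 3. The methods' t-test had 3 at an unadjusted p under 0.05. Endothelial and fibroblast markers were called higher in 4 of 11 (median 0.69), at 10.001 to 10.53 on the OBX side and 9.32 to 9.78 on the control side, and in 0 without mouse 2 or mouse 3 or with the ribosomal scaling. The medians of the 36 mitotic genes were 0.51, 0.65 and 0.84 in mice 1, 2 and 3. Neither the macrophage list, the endothelial and fibroblast list nor those of the basal cells had medians in that order. Not all of the 36 genes had it either, with the smallest difference in mouse 1 for 19 and in mouse 2 for 17. Genes of mitotic entry had medians of 0.42, 0.40 and 0.70, smallest in mouse 2. Macrophage medians were 0.40, 1.24 and 0.65 and endothelial and fibroblast medians 0.18, 1.04 and 0.73, both largest in mouse 2. Globose basal cell medians were 0.56, 0.32 and 0.60 and horizontal basal cell medians 0.46, 0.30 and 0.35, both smallest in mouse 2. None of 9 lymphocyte markers was called by limma (median 0.02), 1 was higher at an unadjusted p under 0.05, and the list lay at 6.28 to 6.32 on the OBX side and 6.10 to 6.45 on the control side. Of 13 immature OSN markers 3 were called lower (median -0.07), and of 9 markers of sustentacular cells and glands 2 were called higher (median 0.24). With mouse 1, 2 or 3 left out, 2, 1 and 0 of the immature OSN markers were called lower and none of the sustentacular and gland markers was called by limma, and with the ribosomal scaling 6 immature OSN markers and 2 of sustentacular cells and glands were called lower. The part of any of these cell types in the result was not tested.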

How the data were processed

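The members and all gene lists were chosen with earlier results of these data known. The deposited values are log2 signals that the authors computed with RMA in Affymetrix Expression Console. Neither its version nor a genome build was given in the sources used here. The values are exon-level values (1.20 to 15.17), whereas the methods describe gene-level ones, so the gene step was repeated: of 229581 probe sets, the 209279 with exactly 1 symbol in the platform annotation were summarised per gene (16380) by Tukey's median polish, with symbols updated through RefSeq. The dimmest 10% of genes by mean signal were dropped, which the methods also did.

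The gene fit (limma 3.58.1 in R 4.3.3, lmFit and eBayes, files read by the package data.table, 1.17.8) had terms for mouse, as a block, and for side. Tests were two-sided, with Benjamini-Hochberg adjustment and a threshold of 0.05. The pairing comes from the labels and methods. After removal of side means, the sides of a mouse correlated at r = -0.07, 0.27 and 0.24. Exon usage was tested with diffSplice in genes with at least 4 probe sets left. The fits were checked on simulated data. Lists are described by counts and medians only. Values on all arrays are given for the largest and smallest difference in each role and for members with a result of their own, and up to 2 genes of lowest p per related list are named. Alternatives were the block, the methods' t-test, thresholds, filters, variance model, scaling, probe set summary and each mouse left out. Figures were drawn in Python with matplotlib.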

Additional observations from a re-analysis of the deposited data

How the results depend on the processing

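The count of 26 members called higher stayed within 1.5 times under most alternatives, from 19 by the methods' t-test without adjustment to 35 at an adjusted p under 0.20. Over all 14742 genes, that t-test had 1619 higher and the threshold of 0.20 had 3469 higher, against 1458 in the main fit. Without the replicate block it was also 26, of which 24 were shared, and of the other lists the count of macrophage markers called higher fell to 3, that of anaphase-promoting complex genes to 1, that of cohesin genes to 1 and that of sustentacular cell and gland markers to 1. The count of members called higher moved to 0 by the methods' t-test with Benjamini-Hochberg adjustment, where 19 members had an unadjusted p under 0.05 and 1 gene of all was called, to 10 with scaling on ribosomal protein genes, and to between 1 and 24 when a mouse was left out (1 without mouse 3). The count of members called lower was 0 in every alternative run. The median difference was 0.40 under the ribosomal scaling and 0.54 to 0.69 with a mouse left out. Members called for exon usage numbered 5, 4 without the replicate block, 10 with no probe sets left out, 0 with each probe set's own spread, and 1 to 7 with a mouse left out. The signs of 35 members held in every alternative run. Bub3 turned, to -0.17 under the ribosomal scaling and to -0.034 with the median of probe sets. The causes were not tested. Signal limits the dimmest members: 30 of the 36 were left once the lowest 30% of genes were out. Ttk and Cenpk were among the members no longer tested at that cut. Of the 711 probe sets of the 36 genes, 39 were among the dimmest 10%, including 4 of the 22 of Ttk and 4 of the 13 of Cenpk.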

Other observations

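Among the genes that control transcription late in the cell cycle, 2 that were called higher were picked out after their values were seen. Foxm1, a forkhead factor that acts at promoters of many mitotic genes, had 7.66, 7.32 and 7.55 on the OBX side, against 7.04, 6.82 and 6.91 on the control side. The sides did not overlap, and the difference was 0.59 ± 0.08 (SE, adjusted p = 0.0132). Lin9, a subunit of the MuvB complex that binds the CHR, had 6.38, 6.22 and 6.49 on the OBX side, against 5.84, 6.00 and 5.84 on the control side. Its difference was 0.47 ± 0.12 (adjusted p = 0.0464). The other MuvB subunits measured had differences of -0.37 for Lin52 (adjusted p = 0.068), -0.10 for Lin37, -0.05 for Lin54 and 0.10 for Rbbp4, none of them called by limma. Mybl2, from the same list of mitotic entry genes, was not called (0.21, adjusted p = 0.164). Of this whole list, 1 gene was called higher without mouse 3. Whether the product of Foxm1 or of Lin9 bears on the mitotic genes was not tested.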
